A study of Mus musculus with 3 samples.

Results

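The growth factor genes Kitl, Bmp2, Igf1, Pdgfb, Pdgfc, Vegfa and Hbegf, were followed across the cells of the stomach muscle layer. They were chosen by symbol as secreted factors that act on muscle, neurons and Kit-bearing cells, and all 7 were found among the 31053 genes of the count tables. The data are single-cell RNA counts of cells sorted for CD45, which leukocytes carry on their surface, out of the gastric muscularis propria of female C57bl/6 mice after collagenase type II digestion. All 3 libraries belong to 1 group, named NonDiabetic, with no genetic change and no treatment given in the labels, and no age. The study concerns the makeup and the origin of macrophages in the gastric muscle layer. Diabetic samples were not analysed here. The labels do not say whether each library came from its own animal or from pooled animals. A p-value given here reflects the variation among 3 libraries, or 2 where 1 was missing or left out. That variation may be no more than technical. The CD45 gate limits what can be read of muscle, neurons and interstitial cells of Cajal: 6 cells passed the smooth muscle gate, 7 the glia gate, 1 the gate for interstitial cells of Cajal and 0 the enteric neuron gate.

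As background, Kitl encodes the ligand of the receptor tyrosine kinase Kit, which mast cells and the pacemaker cells of the gut wall, the interstitial cells of Cajal, need to survive. Bmp2 encodes a bone morphogenetic protein that muscularis macrophages are known to provide to enteric neurons. Igf1 encodes insulin-like growth factor 1, Pdgfb and Pdgfc encode ligands of the platelet-derived growth factor receptors of mesenchymal cells, Vegfa encodes the main growth factor of blood vessels, and Hbegf encodes a membrane-bound ligand of the EGF receptor that is shed by proteases. A secreted factor is often made by one cell and read by its neighbour, so ligands and receptors were looked at in the same classes.

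The libraries held 881, 2839 and 2015 barcodes with 6777422, 13336484 and 11017170 unique molecular identifiers (UMIs, counts of captured molecules) in replicates 1, 2 and 3. Cells with at least 1000 UMIs and at most 15% mitochondrial UMIs numbered 522, 1692 and 1216, and 467, 1363 and 1062 of these passed the gate of 1 class, which asks for UMIs of at least 3 of 8 marker genes and at least 2 more markers than for any other class. The gates gave 1982 macrophages, 416 group 2 innate lymphoid cells (ILC2), 216 conventional type 2 dendritic cells (cDC2), 45 cDC1, 48 mast cells, 41 T or NK cells and 60 fibroblasts. The median depth was 6924.5 UMIs in macrophages, 7085.5 in ILC2, 15735 in cDC2, 6888 in T or NK cells, 2879 in mast cells and 13978 in fibroblasts. Replicates 2 and 3 shared 33 barcodes, and 3 of these were kept in both. Fibroblasts do not carry CD45, came mostly from replicate 1 (42, 8 and 10 cells) and expressed all 8 fibroblast markers, at a summed 43181 to 54124 CPM (UMIs per 1000000 UMIs of the class), against 111.6 to 372.8 CPM for the 8 macrophage markers.

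By the mm10 build, with coordinates from the GENCODE annotation, Kitl lies on chromosome 10 from 100015630 to 100100416, Igf1 on chromosome 10 from 87858265 to 87937042, Bmp2 on chromosome 2 from 133552159 to 133562885 and Pdgfc on chromosome 3 from 81036416 to 81214040, all on the plus strand. Pdgfb lies on chromosome 15 from 79995874 to 80014977 and Vegfa on chromosome 17 from 46016993 to 46032369, both on the minus strand. Counts came from the 3′ end of transcripts, so levels are compared between cells and not between genes.

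The RefSeq table for GRCm38.p6 holds promoters of 4 of the 7 genes, Igf1, Kitl, Pdgfc and Vegfa. A pair of them is shown because these genes had the largest rise and the largest fall between the macrophage subsets described further on: the 250 bases before the start of Pdgfc, at chr3:81036166-81036415 on the plus strand, and of Vegfa, at chr17:46032378-46032627 on the minus strand, both 5′ to 3′ along the gene. Capitals mark matches to the motifs searched.
Pdgfc: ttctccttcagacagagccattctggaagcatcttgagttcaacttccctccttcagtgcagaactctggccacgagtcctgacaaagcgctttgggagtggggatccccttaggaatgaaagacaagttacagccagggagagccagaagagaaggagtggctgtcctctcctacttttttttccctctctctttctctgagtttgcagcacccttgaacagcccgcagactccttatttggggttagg
Vegfa: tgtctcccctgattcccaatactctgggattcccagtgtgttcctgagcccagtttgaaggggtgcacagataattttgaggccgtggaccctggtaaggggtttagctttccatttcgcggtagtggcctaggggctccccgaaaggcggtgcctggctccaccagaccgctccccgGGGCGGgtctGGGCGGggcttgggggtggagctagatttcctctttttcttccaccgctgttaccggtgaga
Each motif below was searched for on both strands. The AP-1 motif was TGANTCA. The half-site of MAF factors was TGCTGAC. The core of PU.1 sites was GAGGAAG. The E-box was CACGTG. The TATA box was TATAAA. The GC box was GGGCGG. The hypoxia response core was ACGTG, which also lies within the E-box. The Pdgfc window holds none of these strings. The Vegfa window holds 2 GC boxes, 72 to 67 and 62 to 57 bases before the start. Another Vegfa start of the table, with its window at chr17:46025164-46025413, has a GC box at 158 to 153 and the hypoxia response core at 211 to 207 bases before it. This second window lies inside the annotated Vegfa gene, so its matches are to sequence within the gene. The Kitl window, at 69.2% G and C, holds 3 GC boxes and a TATA box 25 to 20 bases before the start of the RefSeq table. It spans chr10:100015571-100015820 and crosses the annotated start of Kitl at 100015630, and its matches lie past that start. The Igf1 window holds an AP-1 match at 37 to 31 and a PU.1 core at 60 to 54 bases. At chr10:87860861-87861110, it too lies inside the annotated gene. Of 32851 promoters of the same length, 32.7% hold a GC box, 12.4% a TATA box, 6.75% the AP-1 string, 10.6% the PU.1 core and 16.6% the hypoxia response core. These are matches of letters and say nothing of binding.

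Macrophages carried UMIs of all 7 genes, as did cDC2, fibroblasts and the monocyte-like cells with Chil3 and F10. The lowest counts there were 4 UMIs in cDC2, 1 in fibroblasts and 1 in the monocyte-like cells. ILC2, T or NK cells and mast cells carried UMIs of some. Kitl, Igf1 and a little Bmp2 were shared with fibroblasts, Bmp2 with ILC2 and mast cells, Pdgfb with dendritic cells, and Vegfa was led by mast cells. Pdgfc had the narrowest distribution, with 631 UMIs in macrophages, 4 in cDC2, 4 in fibroblasts and 0 in ILC2, T or NK cells and mast cells.

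**Figure D1:**
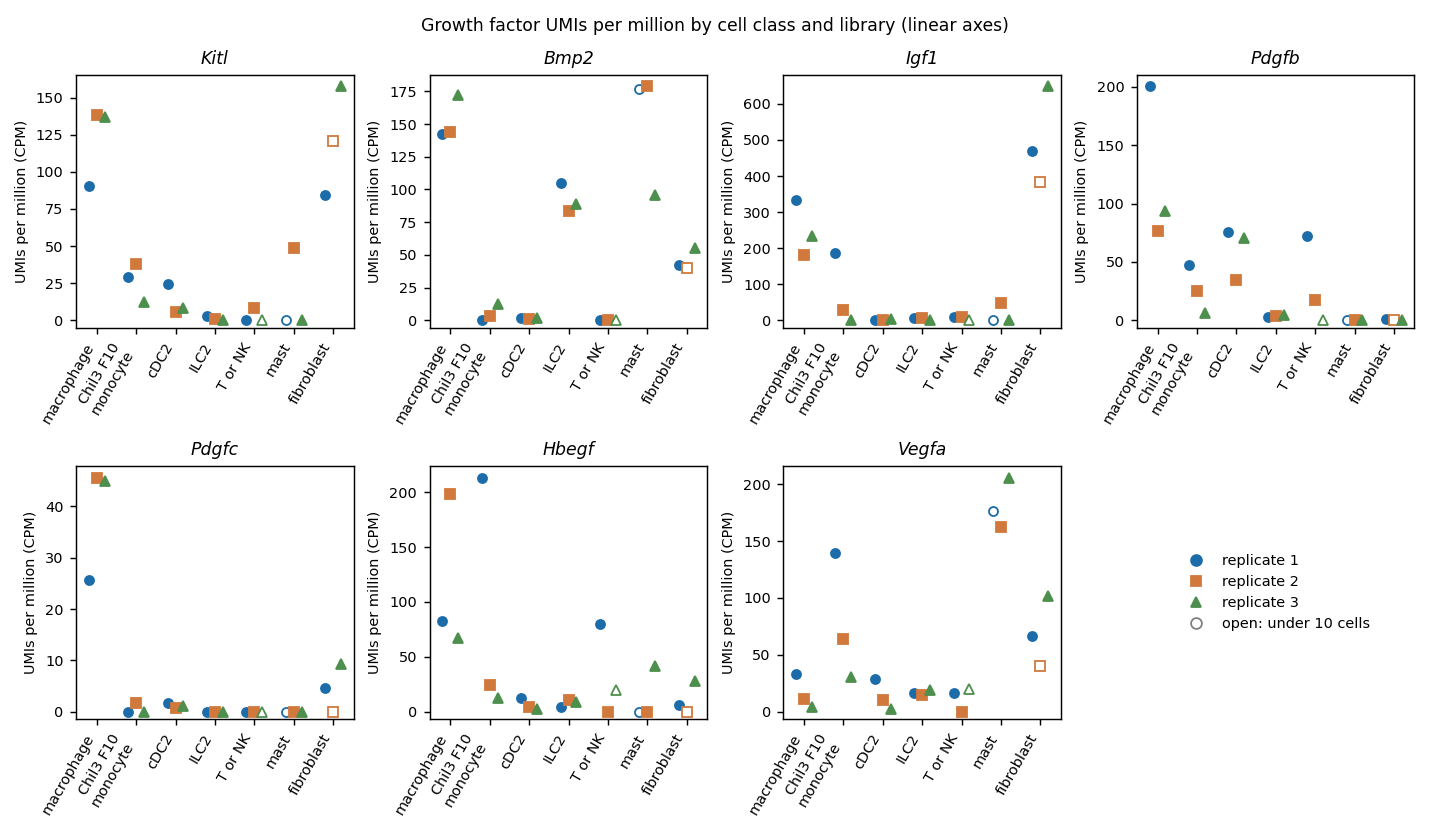
CPM (vertical linear axes, each with its own scale) of the 7 growth factor genes in 6 marker-gated cell classes and monocyte-like cells with Chil3 and F10 (horizontal axes); each point is 1 library and open points rest on under 10 cells. Bmp2 stands at 83.7 to 105 CPM in ILC2 and at 0 in T or NK cells, and Vegfa is highest in mast cells.

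Kitl, the Kit ligand, stood at 90.4, 139 and 137 CPM in the macrophages of replicates 1, 2 and 3. Fibroblasts gave 84.4, 121 and 158 CPM, from 56, 12 and 17 UMIs, of which 1 cell in each library held 23, 5 and 8. The 2 classes overlapped, and both lay above cDC2, at 24.8, 5.5 and 8.1 CPM, and ILC2, at 2.8, 0.9 and 0 CPM. With every cell thinned to 1000 UMIs, 12.3% of macrophages had a Kitl UMI (exact 95% interval 10.9 to 13.8%), against 13.3% of 60 fibroblasts (5.94 to 24.6%) and 0 of 416 ILC2 (exact upper limit 0.883%, or 0.721% by the floor of 3 counts). Without thinning the shares were 42.6% of macrophages, 30% of fibroblasts and 0.962% of ILC2. A few cells of the wall outside these classes also held it: 11 UMIs in the 6 smooth muscle cells, and 7 and 22 UMIs in 2 endothelial cells each of replicates 1 and 3, numbers too small for a level.

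The receptor was found elsewhere. Kit stood at 3611, 1366 and 1290 CPM in mast cells, highest in the 8 cells of replicate 1, and at 245 ± 55.3 CPM (SD, n = 3) in ILC2, against 2.11 ± 0.97 CPM (SD, n = 3) in macrophages. Kitl in turn was at 0, 48.8 and 0 CPM in mast cells, all of it 3 UMIs in 1 cell. Kit was also low in fibroblasts, with 2 UMIs in 60 cells.

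Bmp2 stood at 142, 144 and 173 CPM in macrophages and at 105, 83.7 and 89.1 CPM in ILC2, innate lymphocytes that secrete type 2 cytokines. Mast cells gave 177, 179 and 96.1 CPM, from only 7, 11 and 7 UMIs, and overlapped both. Fibroblasts were lower, at 42.2, 40.3 and 55.6 CPM. Of the ILC2 UMIs, 1 cell held 53 of 114 in replicate 1, 24 of 91 in replicate 2 and 7 of 81 in replicate 3. The remaining leukocytes were nearly empty of it: cDC2 gave 0.8 to 2.0 CPM, and T or NK cells gave 0 of 291223 UMIs, so that ILC2 were at least 9.02-fold and mast cells at least 14.0-fold higher, with the floor of 3 counts taken over the whole class. After thinning, 10.0% of macrophages (8.75 to 11.4%), 6.97% of ILC2 (4.72 to 9.86%), 16.7% of mast cells (7.48 to 30.2%) and 0 of 41 T or NK cells (exact upper limit 8.60%, or 7.32% by the floor of 3 counts) had a Bmp2 UMI.

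Bmp2 was also set beside macrophage genes in each class. In macrophages there were 0.697 Bmp2 UMIs per Igf1 UMI and 41.0 per 1000 UMIs of C1qa, a complement gene of macrophages. In ILC2 there were 17.9 Bmp2 UMIs per Igf1 UMI, 13 to 81 in single libraries, and 286 Bmp2 UMIs beside 66 of C1qa. Mast cells held 25 Bmp2 UMIs beside 7 of C1qa. The level of free RNA in the droplets was not measured, and its part in these counts was not tested.

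Igf1 was the member in which fibroblasts led. They gave 469, 383 and 649 CPM, and 51 of the 60 cells had a UMI. Macrophages followed at 334, 182 and 235 CPM, with no overlap between the classes, and 47.5% of their cells had a UMI. Mast cells gave 0, 48.8 and 0 CPM, all of it 3 UMIs, and ILC2 stood at 7.4, 6.4 and 1.1 CPM. After thinning, 31.7% of fibroblasts (20.3 to 45.0%), 16.4% of macrophages (14.8 to 18.2%) and 0.962% of ILC2 (0.263 to 2.44%) had an Igf1 UMI.

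The 2 platelet-derived growth factor genes differed in their classes. Pdgfb stood at 201, 76.8 and 94.0 CPM in macrophages, at 76.0, 34.7 and 70.8 CPM in cDC2, and at 43.5 and 53.2 CPM in the cDC1 of replicates 2 and 3. Macrophages lay above cDC2 in each library, though the lowest macrophage value, in replicate 2, was close to the highest of cDC2, in replicate 1. T or NK cells gave 72.1 and 17.3 CPM, from 9 and 2 UMIs, mast cells held 0 UMIs and the 60 fibroblasts held 1. The few glia (7 cells) and endothelial cells (4 cells) held Pdgfb too, at 114 to 312 and 106 and 278 CPM. Pdgfc stood at 25.7, 45.6 and 45.0 CPM in macrophages, with 19.3% of cells holding a UMI, and at 4.5, 0 and 9.3 CPM in fibroblasts. The floor put macrophages at least 43.9-fold above ILC2 in Pdgfc.

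Pdgfra and Pdgfrb, the receptors of these ligands, were fibroblast genes, with 450 and 84 UMIs in 60 fibroblasts against 7 and 4 UMIs in 1982 macrophages. In fibroblasts Pdgfra stood at 543, 594 and 287 CPM and Pdgfrb at 106, 101 and 37.1 CPM, both lowest in replicate 3.

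Vegfa had a different leader. Mast cells stood at 177, 163 and 206 CPM, fibroblasts at 66.3, 40.3 and 102 CPM, and ILC2 at 16.6, 14.7 and 18.7 CPM. Macrophages gave 33.2, 11.2 and 3.9 CPM, with replicate 1 the highest, and overlapped ILC2 and cDC2. Over all libraries mast cells held 16.8-fold the macrophage level (95% counting interval 11.1 to 24.7). The fold differed between libraries beyond that interval, at 5.33, 14.5 and 52.9 in replicates 1, 2 and 3, and without replicate 3 it was 10.5. After thinning, 22.9% of mast cells (12.0 to 37.3%), 1.92% of ILC2 (0.834 to 3.75%) and 1.51% of macrophages (1.02 to 2.15%) had a UMI.

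Hbegf, on the minus strand of chromosome 18 from 36504927 to 36515805, stood at 82.4, 198 and 67.5 CPM in macrophages, highest in replicate 2. ILC2 gave 4.6 to 11 CPM and cDC2 2.0 to 12.4 CPM, both below every macrophage value. Single cells weighed heavily in small classes: 39 of the 51 Hbegf UMIs of the 6 gated monocytes of replicate 1 lay in 1 cell, as did 10 of the 11 UMIs of all T or NK cells. The 7 glia held 26 Hbegf UMIs.

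Macrophage sums per library were tested against the sums of 4 other classes by the quasi-likelihood test of edgeR with a term for the library. A gene was called where its p, adjusted by Benjamini and Hochberg's method across the whole table, was below 0.05. The macrophage profiles are shared by these comparisons, so each is given by itself. Against all dendritic cells (65, 99 and 110 cells), 38.9% of 8965 genes were called (20.1% higher in macrophages), and 6 of the 7 members were higher in macrophages. Igf1 rose by 6.99 ± 0.27 (log2 fold change ± SE, adjusted p = 5.68e-08), Bmp2 by 6.50 ± 0.28, Pdgfc by 5.09 ± 0.39, Hbegf by 4.25 ± 0.41 and Kitl by 3.29 ± 0.39 (adjusted p = 9.80e-05). The rise of Pdgfb was the smallest, 0.85 ± 0.21 (adjusted p = 0.00855), and its call was lost without replicate 1 (0.53, adjusted p = 0.0621) or replicate 2 (0.83, adjusted p = 0.0547). Vegfa, at 0.20 ± 0.28, was not called.

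Against ILC2, 54.6% of 8918 genes were called. Kitl was higher in macrophages by 6.28 ± 0.39, Igf1 by 5.41 ± 0.30, Pdgfb by 4.90 ± 0.33 and Hbegf by 3.59 ± 0.27, and Pdgfc was called higher against 0 UMIs in ILC2. Bmp2 differed least, by 0.51 ± 0.16 in edgeR (adjusted p = 0.0133), and macrophages were above ILC2 in 3 of 3 libraries. That call was lost with DESeq2 (adjusted p = 0.0738), without the library block (adjusted p = 0.0665) and without replicate 3 (0.43, adjusted p = 0.126). Vegfa, at -0.56 ± 0.47, was not called, and without replicate 1 it was lower in macrophages (-1.39, adjusted p = 0.00642).

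Against fibroblasts, replicates 1 and 3 had the 10 cells a profile required, and 34.5% of 9547 genes were called. With only these 2 libraries, the p-values of this fit rest mostly on variation pooled over all genes, and little on that of each gene. Macrophages were higher in Bmp2 by 1.62 ± 0.40 (edgeR, adjusted p = 0.000220), Pdgfc by 2.32 ± 0.73 (adjusted p = 0.00564) and Hbegf by 2.83 ± 0.57 (adjusted p = 5.76e-06). Pdgfb was called higher too, against the single fibroblast UMI, a count ratio of 86.8 with a 95% interval of 15.5 to 3429. Vegfa was lower by 2.29 ± 0.48 (log2 fold change -2.29, edgeR, adjusted p = 1.07e-05) and Igf1 was lower as well (-0.97 ± 0.35, adjusted p = 0.0178). Kitl, at -0.07 ± 0.35, was not called. With 5 cells allowed per profile, which brought in replicate 2, 36.3% of genes were called and the same 6 members passed in the same directions. The Igf1 call was lost without the library block (adjusted p = 0.143) and without the filter on low counts (adjusted p = 0.0811), and the Pdgfc call with DESeq2 (adjusted p = 0.0523).

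The planned monocyte gate held 6, 9 and 2 cells and could not be tested. A gate chosen after the data were seen asked for at least 2 summed UMIs of Chil3 and F10, genes of classical monocytes. It was applied to cells gated as macrophages, monocytes or cDC2, and to ungated cells with most markers of these classes. The monocyte-like cells it picked numbered 30, 41 and 12. Against these, 17.2% of 8023 genes were called, 8.77% higher and 8.44% lower in macrophages. Macrophages were higher in Bmp2 by 5.40 ± 0.43, Pdgfb by 2.01 ± 0.28, Kitl by 1.96 ± 0.27 and Igf1 by 1.90 ± 0.42 (edgeR, adjusted p = 0.00690), and in Pdgfc, of which the 83 monocyte-like cells held 1 UMI. Vegfa was the reverse, at 140, 63.7 and 30.6 CPM in these cells and lower in macrophages (-2.92 ± 0.29, adjusted p = 1.66e-05). The 17 cells of the planned monocyte gate, however, held 0 Vegfa UMIs of 183186, and 0 of Kitl, Bmp2, Igf1, Pdgfb and Pdgfc. Hbegf, at 0.67 ± 0.62, was not called: the monocyte-like cells of replicate 1 gave 213 CPM, 39 of their 81 UMIs in 1 cell, and without replicate 1 macrophages were higher by 2.90 (adjusted p = 4.27e-13). The Igf1 call was lost without the library block (adjusted p = 0.134).

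**Figure D2:**
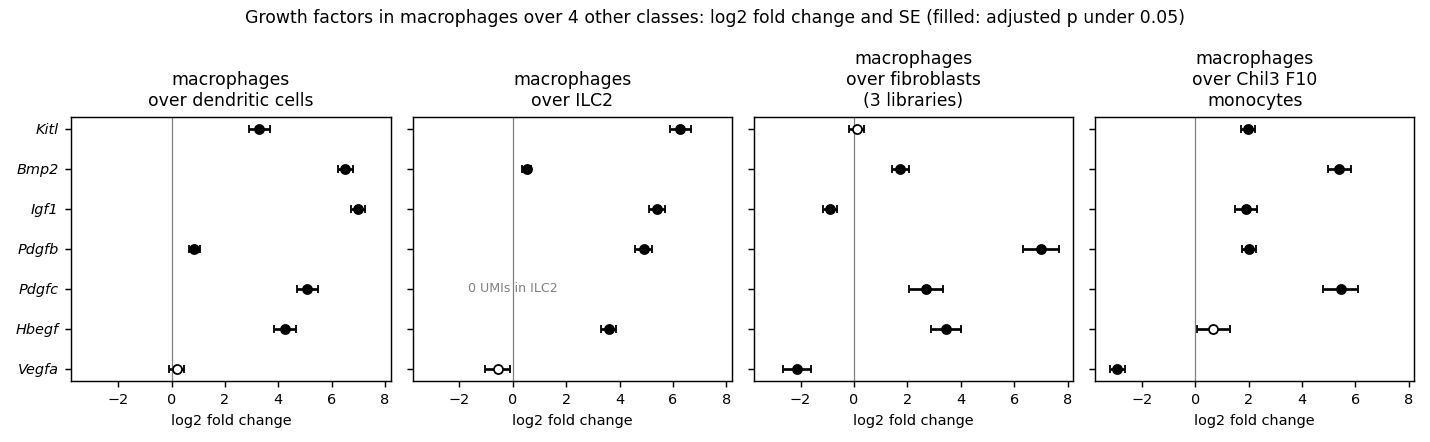
Log2 fold change (horizontal axes, bars show the SE) of the 7 genes in macrophages over 4 other classes, filled where the adjusted p of edgeR is under 0.05; the fibroblast panel uses all 3 libraries and Pdgfc against ILC2 is left out for its 0 UMIs. Bmp2 stands near 0 only against ILC2 (0.51) and Kitl only against fibroblasts (0.09). Vegfa lies left of 0 with a call against fibroblasts and the monocyte-like cells with Chil3 and F10.

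Within macrophages the 7 genes split. Cells with at least 2 summed UMIs of Timd4, Lyve1 and Folr2 (TLF-positive), markers of long-lived resident macrophages, numbered 91, 457 and 402. Cells with 0 such UMIs (TLF-negative) numbered 106, 381 and 298. The median depths were 7712.5 and 6827 UMIs. By library they were 6409, 7497 and 8138 UMIs in TLF-positive and 9329.5, 3978 and 7671 UMIs in TLF-negative cells. Kitl, Bmp2, Igf1, Pdgfc and Hbegf were higher and Pdgfb and Vegfa lower in TLF-positive cells, in 3 of 3 libraries each. Of 9657 genes tested, 20.6% were called, 9.87% higher and 10.7% lower.

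Pdgfc showed the widest gap, 60, 80 and 79.6 CPM in TLF-positive against 4.9, 7.1 and 3.4 CPM in TLF-negative macrophages (log2 fold change 3.70 ± 0.22, edgeR, adjusted p = 3.30e-05). The groups did not overlap, and 36.2% of TLF-positive against 3.69% of TLF-negative cells had a UMI. Hbegf stood at 137, 317 and 100 against 52.5, 55.2 and 27.5 CPM (1.87 ± 0.19, adjusted p = 0.000290). Igf1 stood at 470, 282 and 367 against 237, 62.3 and 65.6 CPM (1.74 ± 0.24, adjusted p = 0.00113), and its TLF-negative value in replicate 1 was high. Bmp2 stood at 195, 197 and 271 against 104, 91.1 and 62.7 CPM (1.25 ± 0.20, adjusted p = 0.00285). Kitl stood at 110, 188 and 188 against 75.8, 74.2 and 72.8 CPM (1.01 ± 0.16, adjusted p = 0.00233).

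The other two went the opposite way within each library. Pdgfb stood at 159, 55.5 and 72.1 CPM in TLF-positive against 242, 99.4 and 122 CPM in TLF-negative macrophages (-0.89 ± 0.12, edgeR, adjusted p = 0.00113). Its 2 groups overlapped across libraries, since replicate 1 was high in both. Vegfa stood at 7.0, 5.1 and 2.4 against 55.4, 12.2 and 6.8 CPM (-1.95 ± 0.35, adjusted p = 0.00474), from 5, 18 and 8 against 57, 31 and 16 UMIs. Without the library block the calls of Igf1 (adjusted p = 0.0607), Pdgfb (adjusted p = 0.235) and Vegfa (adjusted p = 0.0785) were lost. Without replicate 2, Kitl lost its call (0.87, adjusted p = 0.0691) and the number of genes called fell from 1990 to 601, and without replicate 3 it was 900.

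**Figure D3:**
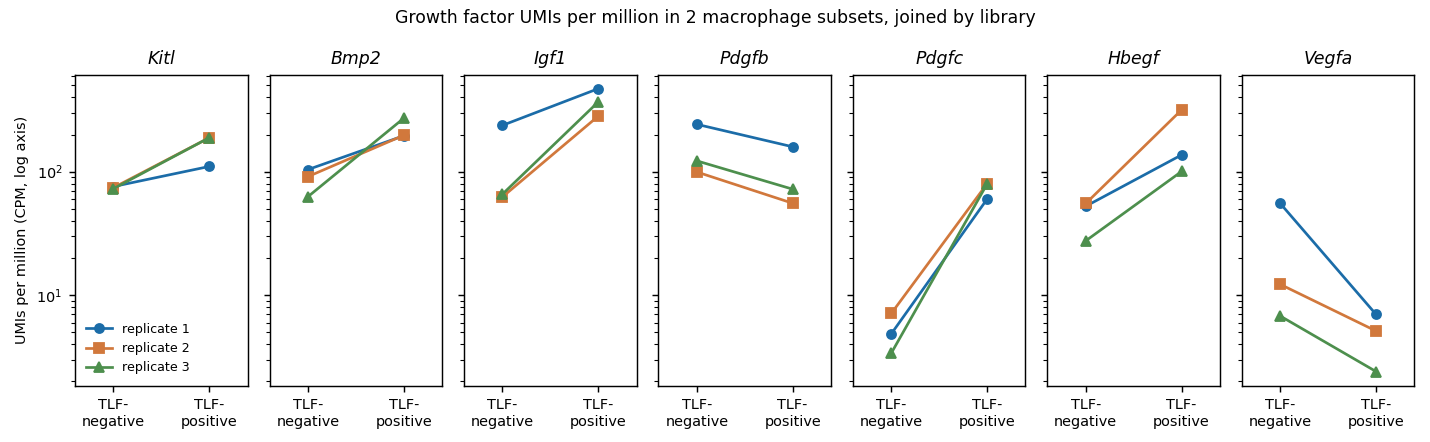
CPM (vertical log axis) of the 7 genes in TLF-negative and TLF-positive macrophages; lines join the 2 subsets of 1 library. All lines rise in the first 3 panels, Pdgfc and Hbegf, and all fall in Pdgfb and Vegfa, with Pdgfc going from 3.4 to 7.1 CPM up to 60 to 80 CPM.

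Markers of wall cells differed between the subsets too. The 8 smooth muscle markers summed to 57.2 to 192 CPM in TLF-positive and 20.4 to 88.4 CPM in TLF-negative macrophages, led by Tagln and Acta2, and none of the 8 was at 0 in either subset. The 8 fibroblast markers summed to 38.2 to 79.5 and 30.1 to 55.4 CPM, again with none at 0. For Kitl, TLF-positive cells held 1080 and TLF-negative cells 982 UMIs per 1000 smooth muscle marker UMIs, against 3.23 in the 6 gated smooth muscle cells. For Igf1 there were 6759 and 2543 UMIs per 1000 fibroblast marker UMIs, against 10.8 in the fibroblasts. The list for interstitial cells of Cajal summed to 119 to 157 CPM in TLF-positive and 26.2 to 32.1 CPM in TLF-negative cells, nearly all of it Etv1 (mean 125 and 22.7 CPM), while Ano1 and Kit, which define those cells, averaged 0.395 and 1.55 CPM in TLF-positive cells. Cacna1h of that list was at 0 in both subsets and Edn3 in TLF-negative cells.

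Immediate early genes, which tissue digestion can raise, were also measured. Jun stood at 2253 ± 685 CPM (SD, n = 3) in TLF-positive and 1293 ± 535 CPM in TLF-negative macrophages, and Egr1 at 395 ± 141 and 248 ± 155 CPM. Fos was at 741 ± 272 and 704 ± 201 CPM and Atf3 at 1081 ± 174 and 1006 ± 113 CPM. Their part in the levels of Hbegf and the other members was not tested.

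Among TLF-positive cells, those with a Timd4 UMI (29, 143 and 171 cells) stood beside those without (62, 314 and 231 cells) as follows, given as a description. Kitl was at 185, 196 and 209 with Timd4 against 87.3, 185 and 173 CPM without, and Bmp2 at 329, 201 and 335 against 155, 196 and 221 CPM, close together in replicate 2. Igf1 went both ways, at 436, 308 and 421 against 480, 270 and 325 CPM, lower with Timd4 in replicate 1. Pdgfc was at 89.7, 109 and 103 against 51.0, 66.8 and 61.7 CPM, higher with Timd4 in each library. Pdgfb was at 53.8, 35.7 and 57.3 against 191, 64.4 and 83.5 CPM, lower with Timd4 in each library. Hbegf was at 263, 421 and 126 against 98.3, 270 and 80.4 CPM, and Vegfa had 3 UMIs in 343 cells with Timd4 against 28 in 607 without.

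Among TLF-negative macrophages, cells with Ccr2 and no Cx3cr1 UMI (25, 86 and 60 cells) were compared with the reverse (11, 35 and 64 cells), Ccr2 being a receptor of recently arrived monocyte-derived cells. Of 4404 genes, 7.29% were called, 3.2% higher and 4.09% lower in the Ccr2 cells. Bmp2 was lower in the Ccr2 cells, at 57.0, 106 and 6.7 against 272, 239 and 116 CPM (log2 fold change -2.01 ± 0.34, edgeR, adjusted p = 0.000278), in 3 of 3 libraries. The groups did not overlap, but the Bmp2 call was lost without the library block (adjusted p = 0.152). The comparison left out 278 TLF-negative cells with UMIs of both receptors and 226 with neither. Bmp2 stood at 67.4 ± 36.1 and 84.9 ± 48.5 CPM (SD, n = 3) in these, so Cx3cr1 cells that also held Ccr2 were not high in it. Igf1 was lower as well, at 289, 58.7 and 28.9 against 427, 93.9 and 100 CPM (-0.94 ± 0.28, adjusted p = 0.0430), a call that 7 of 11 alternatives lost, among them leaving out replicate 2 or 3 (adjusted p = 0.0758 and 0.372). Kitl, at -0.17 ± 0.31, Pdgfb, at -0.61 ± 0.27, and Hbegf, at -0.55 ± 0.41, were not called, and Pdgfc and Vegfa had too few UMIs to enter the test.

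Related genes were counted from lists of the pathways. Of 19 receptor genes, 11 were tested between the TLF subsets, 6 were higher and 1 lower in TLF-positive cells, with a median log2 fold change of 0.64 against 0.00 over all genes tested. Egfr, the receptor of the Hbegf product, rose by 4.06 ± 0.27 (edgeR, adjusted p = 4.85e-05), from 1.97 ± 1.00 CPM (SD, n = 3) to 38.5 ± 13.1 CPM, and Nrp1 and Nrp2, co-receptors of VEGF, rose by 1.16 ± 0.16 and 1.32 ± 0.12. Igf1r and Insr, the receptors of IGF1 and insulin, rose by 0.64 ± 0.15 and 0.91 ± 0.17. Bmpr1a, a BMP receptor, rose by 2.30 ± 0.53 from a low level, and Igf2r, which clears IGF2, was lower (-1.55 ± 0.43).

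The other lists are read against the 9.87% of all genes called higher and 10.7% called lower between these subsets. Of 20 related ligands, 6 were tested and 2 were higher: Gdf15, a stress-induced member of the TGF-beta family, by 0.83 ± 0.13, and Vegfb, a further VEGF ligand, by 0.80 ± 0.21 (edgeR, adjusted p = 0.0254). Igfbp4, which binds IGF1, was higher by 1.79 ± 0.15 and was 1 of 2 binding proteins tested of 13. Of 10 processing genes, 6 were tested, with Mmp9 and Plau, both proteases, higher by 2.58 ± 0.47 and 0.84 ± 0.16, and Furin, which cuts BMP and PDGF precursors, lower (-0.66 ± 0.18). Of 9 BMP target and SMAD genes, 5 were tested, 0 were higher in edgeR (1, Smad5, at an unadjusted p below 0.05) and 3 lower, Id3 (-0.98 ± 0.24), Id2 (-0.45 ± 0.13) and Smad7 (-0.78 ± 0.19). Of the GDNF family ligands, Nrtn had 7 UMIs in 1982 macrophages, Artn 1, and Gdnf and Pspn 0.

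Against fibroblasts, where 17.4% of all genes were called higher and 17.1% lower in macrophages, the lists differed among themselves. Of 12 receptors tested in edgeR, 0 were higher and 5 lower. Nrp1 was higher at an unadjusted p below 0.05 there, and was called with 5 cells per profile (0.95, adjusted p = 0.0209). Of 8 binding proteins tested, 0 were higher, also at an unadjusted p below 0.05, and 7 lower. Of 10 related ligands tested, 2 were higher and 5 lower, and of 6 BMP target and SMAD genes 1, Id2, was higher and 3 lower. Among 9 processing genes 5 were higher, such as Plau (4.94 ± 0.54) and Furin (1.53 ± 0.39), and 3 lower. Igfbp4 stood at 1872, 3083 and 1965 CPM in fibroblasts and 314 ± 99.3 CPM (SD, n = 3) in macrophages, and Grem1, which blocks BMP2, had 517 UMIs in the 60 fibroblasts against 12 in 1982 macrophages. Among the related ligands, Bmp4 was a fibroblast gene (274, 272 and 315 CPM) and Bmp7 an ILC2 gene (59.8 ± 5.35 CPM, n = 3), each with under 0.5 CPM in macrophages. Areg, another EGF receptor ligand, stood at 1985 ± 747 CPM (SD, n = 3) in ILC2.

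Whether the members sat in the same cells was read from macrophages thinned to equal depth, since deeper cells hold more of every gene. Thinned to 1000 UMIs, 46.5% of 1982 macrophages held a UMI of at least 1 member and 251 cells held 2 or more. At this depth 6 of 21 pairs had a log2 odds ratio of being found together above 0 in all 3 libraries. For 2 pairs it was below 0 in all 3, and 13 went both ways. Pdgfc and Vegfa, counted among the 6, shared only 1 cell against 1.31 if independent. Their ratios rest on the 0.5 added to each cell of the table. Thinned to 5000 UMIs, a depth added after the data were seen and reached by 138, 528 and 534 macrophages, 57.9% of cells held 2 or more members and 25 of 1200 held 5 or 6. Of the 21 pairs, 9 then lay above independence in all libraries, 4 below and 8 both ways. With 3 libraries the exact two-sided sign-flip test cannot give a p below 0.25, so no pair can pass it.

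Igf1 and Pdgfc had the highest mean log2 odds ratio of the 21 pairs at 5000 UMIs, 1.78 ± 0.41 (SD, n = 3 libraries), with 150 cells holding both against 98.6 if independent. Bmp2 and Igf1 were together in 197 cells against 151 (1.13 ± 0.21), Kitl and Igf1 in 310 against 245 (1.08 ± 0.62), and Kitl and Bmp2 in 152 against 122 (0.84 ± 0.13). The same 4 pairs at 1000 UMIs gave 1.26 ± 1.19, 0.49 ± 0.53, 0.02 ± 0.42 and 0.69 ± 1.34, with SDs as wide as the values. Pdgfb stood apart: it was found with Igf1 in 139 cells against 169 (-0.68 ± 0.33), with Hbegf in 59 against 79.2 (-0.76 ± 0.23) and with Pdgfc in 34 against 52.6 (-0.72 ± 0.59), below independence in each library. Kitl and Vegfa shared 5 cells against 10.5 (-1.29 ± 0.32), which rests on 27 cells with Vegfa.

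The same pairs were read within each subset. Within TLF-positive macrophages at 5000 UMIs, Kitl and Igf1 shared 264 cells against 255 (0.04 ± 0.85) and Kitl and Bmp2 122 against 120.0 (0.34 ± 0.59), with libraries on both sides of 0. Igf1 and Pdgfc stayed above in 3 of 3 libraries, 147 cells against 134 (0.70 ± 0.32), and so did Pdgfc and Hbegf, 75 against 64.5 (0.52 ± 0.36). The same held for Bmp2 with Hbegf, 85 against 76.8 (0.46 ± 0.20), with Igf1, 168 against 161 (0.34 ± 0.27), and with Pdgfc, 68 against 63.5 (0.30 ± 0.20). Pdgfb lay below independence with Igf1, Pdgfc, Hbegf and Bmp2 in 3 of 3 libraries, for Igf1 in 90 cells against 102 (-0.73 ± 0.19). In TLF-negative macrophages Bmp2 and Pdgfb went the other way, 34 cells against 23.3 (1.08 ± 0.53), above 0 in 3 of 3 libraries. Kitl and Igf1 shared 34 TLF-negative cells against 23.1 (1.07 ± 0.07). In TLF-positive cells 77.7% held 2 or more members, in TLF-negative cells 31.5%.

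**Figure D4:**
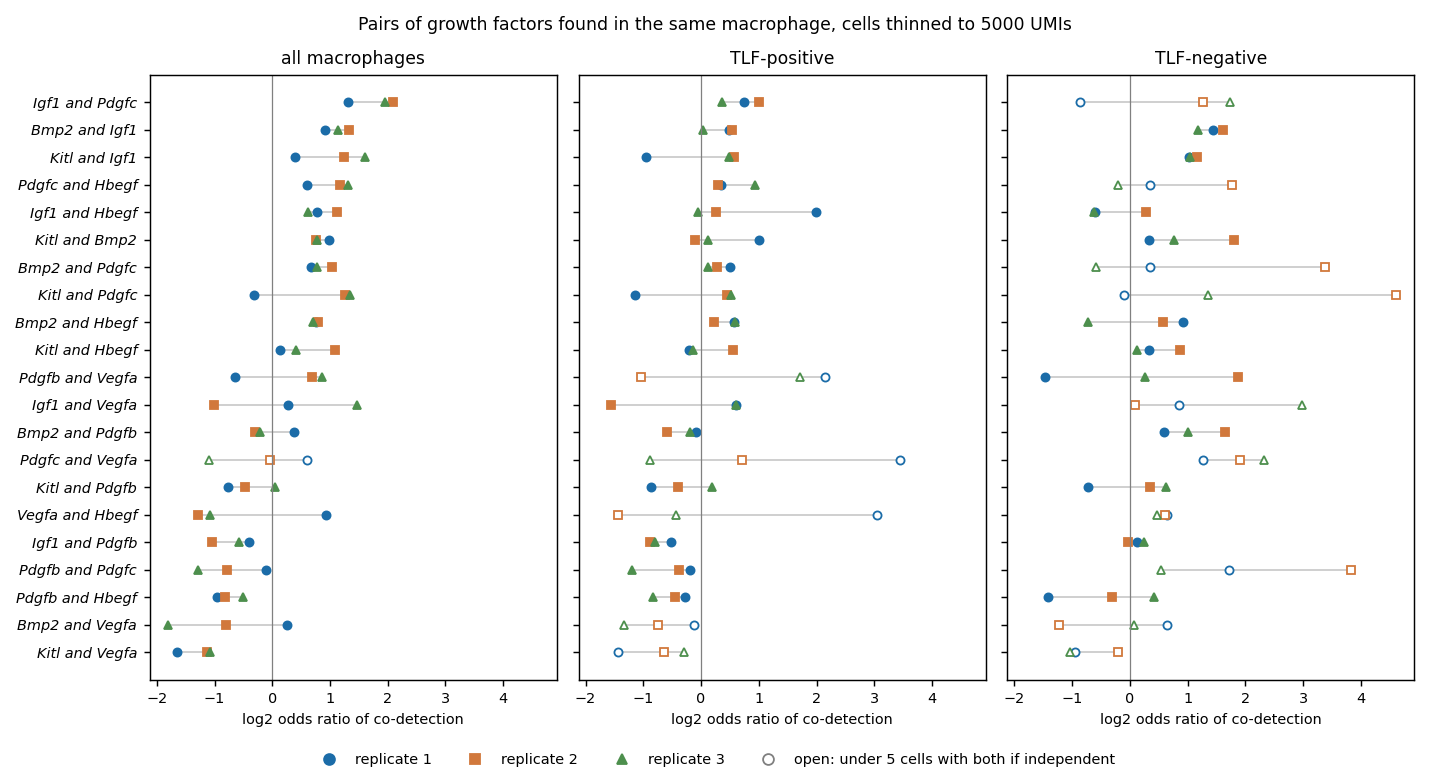
Log2 odds ratio of finding both genes of a pair in 1 cell (horizontal axes) for 21 pairs, in all macrophages and in the 2 subsets thinned to 5000 UMIs; each point is 1 library, grey lines span the 3, and open points rest on under 5 cells with both genes if independent. Igf1 and Pdgfc lead in all macrophages (1.31 to 2.09), the pairs of Pdgfb with Igf1, Pdgfc, Hbegf and Bmp2 lie left of 0 in TLF-positive cells, and pairs with Vegfa scatter widely.

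The UMIs of a member were spread unevenly over cells. The tenth of macrophages with the most UMIs of a gene held 45.1 to 53.3% of Kitl UMIs and 44.3 to 54.7% of Igf1 UMIs in the 3 libraries. It held 61.0 to 72.0% of Pdgfb, 69.3 to 81.25% of Pdgfc, 73.3 to 83.3% of Bmp2, 73.4 to 87.3% of Hbegf and 100% of Vegfa UMIs. Kitl and Igf1 were also found in more cells, 42.6 and 47.5%. Pdgfb was found in 29.8%, Bmp2 in 27.9%, Hbegf in 25.2%, Pdgfc in 19.3% and Vegfa in 3.48%. A single macrophage of replicate 3 held 128 of 1063 Bmp2 UMIs. The 2293 Bmp2 UMIs of macrophages lay in 552 cells.

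In the smaller classes joint detection is given without thinning, as counts. These were not set against the counts if independent, so they do not show that 2 genes favoured the same cells. Of 48 mast cells, 15 held Bmp2, 18 held Vegfa and 11 held both. Of 60 fibroblasts, 51 held Igf1, 18 Kitl and 17 both, while 5 held both Kitl and Bmp2. Of 416 ILC2, 122 held Bmp2 and 28 Vegfa, 9 both, and after thinning to 1000 UMIs 1 ILC2 held 2 or more members. Of 216 cDC2, 87 held Pdgfb, 20 Kitl and 14 both.

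By Pearson's r of log2(CPM + 10) over 13 profiles of class by library with at least 20 cells, among 7911 genes, the genes most like each member were Dse, Rgl1 and Psd3 for Kitl (r = 0.97 each) and Gas6, Rnase4 and Rhoc for Igf1 (0.98, 0.97 and 0.97). Pdgfc was most like Ltc4s, Cp and Mertk (0.99, 0.99 and 0.98), Pdgfb like Lrrc25, Ptpro and Necap2 (0.98 each), and Hbegf like Ccl24, Msr1 and Cln8 (0.95, 0.94 and 0.94). Bmp2 was most like Prkacb, Senp5 and Glul (0.94, 0.92 and 0.92) and Vegfa like Asph, Flywch1 and Zfp592 (0.92, 0.90 and 0.90). Profiles of 1 library share its depth and preparation and profiles of 1 class its cells, so these values describe likeness over few independent points.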

How the data were processed

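Single-cell RNA was measured in 3 NonDiabetic libraries made with 3′ chemistry. The authors deposited counts of UMIs per gene and cell, made with Cell Ranger 3.1 on the mm10 build per the submitters' processing notes, while the file headers record 3.0.0 as the software version of replicate 1 and 3.1.0 as that of the others. The members and lists were chosen with earlier results of these data known. The gate of at least 3 markers and a margin of 2 was chosen among 3 candidate gates after the files were seen, for this gate with the levels of the members in view. Cells were kept with at least 1000 UMIs and at most 15% mitochondrial UMIs, and 538 kept cells passed no gate. Classes and tests come from the same cells. The 7 genes are not markers, but p-values of genes that follow a class are too small.

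Counts were summed per library and class, for libraries with at least 10 cells in both classes, and fitted with edgeR 4.0.16 in R 4.3.3 (quasi-likelihood, TMM scaling, its filter on low counts, library as a block). The block follows from the design, since each library gives both classes. DESeq2 1.42.0, RLE size factors, no filter, no block, other gates, doublets removed with scrublet (6, 64 and 32 cells, otherwise kept) and leaving out each library were alternatives. The Chil3 and F10 gate, fibroblast profiles of 5 cells, the removal of shared barcodes and thinning to 5000 UMIs were added after seeing the data. The fit was tested on simulated data, but the outcome is not given here and nothing is drawn from it. Shares of cells use cells thinned to equal depth, with exact 95% binomial intervals. Intervals and the floor of 3 counts cover counting error only. Odds ratios had 0.5 added to each cell of the table. Named genes were the 7 members, the 3 genes most like each, and the pathway lists counted whole. Median UMIs per kept cell were 9182.5, 5699.5 and 7501.5. Part of a list of further growth factor genes is not reported here.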

Additional observations from a re-analysis of the deposited data

How the results depend on the processing

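Of 384 fold changes of the 7 genes under other settings, 352 kept direction and call, 22 lost the call, 3 gained it and 7 changed sign. Lost and gained calls are given beside their results, those of Igf1 between Ccr2 and Cx3cr1 cells as a count, except the loss for Pdgfb against dendritic cells without the library block (adjusted p = 0.0710 in edgeR) and the gain for Pdgfb between Ccr2 and Cx3cr1 cells without replicate 1 (-0.96, adjusted p = 0.0435). The changes of sign all concern genes that were not called: Kitl against fibroblasts (0.080 with no filter, 0.041 without the block, 0.093 with 5 cells per profile), Vegfa against ILC2 without a library (-1.39 to 0.17), Kitl and Hbegf between Ccr2 and Cx3cr1 cells (-0.43 to 0.10 and -1.22 to 0.26) and Hbegf against the Chil3 and F10 monocytes (-0.58 to 2.90). Without the replicate block, which pairs the classes of a library, the genes called numbered 2243 for dendritic cells, 575 for the TLF subsets, 163 for Ccr2 against Cx3cr1 cells and 730 for monocytes. With DESeq2 there were 993 for the TLF subsets and 139 for Ccr2 against Cx3cr1 cells. Without 1 library the counts ran from 601 to 2577 for the TLF subsets, 129 to 317 for Ccr2 against Cx3cr1 cells (lowest without replicate 3) and 594 to 1418 for monocytes (lowest without replicate 2). The fit against fibroblasts had 2 libraries, so none could be left out. The planned monocyte gate gave no fit. Of 105 CPM values under other cell filters and gates 10 moved by more than 1 SD over libraries, and of 140 shares of cells, thinning to 2000 UMIs included, 62 did so.

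Pairs with a log2 odds ratio above 0 in every library, 6 in the planned reading, numbered 7 to 11 without 1 library. The mean log2 odds ratio changed sign as follows. At 2000 UMIs it became -0.55 for Kitl and Vegfa, -1.53 for Bmp2 and Vegfa, -0.24 for Igf1 and Vegfa, -0.18 for Pdgfb and Pdgfc, -0.34 for Pdgfb and Vegfa and -0.40 for Pdgfb and Hbegf. At 5000 UMIs it became -1.29 for Kitl and Vegfa, -0.78 for Bmp2 and Vegfa, -0.72 for Pdgfb and Pdgfc, -0.76 for Pdgfb and Hbegf, -0.18 for Pdgfc and Vegfa and -0.47 for Vegfa and Hbegf. With doublets removed it became -0.21 for Kitl and Bmp2, -0.22 for Kitl and Vegfa, -0.094 for Kitl and Hbegf, 0.96 for Bmp2 and Pdgfb, -0.20 for Pdgfb and Pdgfc and -0.91 for Pdgfb and Hbegf. With 1 more marker in the gate Pdgfb and Hbegf gave -0.016. Within TLF-negative cells at 1000 UMIs it became 0.28 for Kitl and Pdgfb, 0.79 for Bmp2 and Pdgfb and 0.20 for Igf1 and Pdgfb. There it also became -0.60 for Igf1 and Hbegf and -0.058 for Pdgfb and Vegfa. Within TLF-positive cells at 1000 UMIs it became -0.81 for Kitl and Igf1, -0.13 for Bmp2 and Igf1 and -0.73 for Bmp2 and Hbegf. There it also became 0.054 for Igf1 and Pdgfb. Without 1 library it ran from -0.14 to 0.25 for Kitl and Igf1, -0.022 to 0.97 for Kitl and Pdgfc, -0.24 to 0.52 for Kitl and Vegfa, -0.61 to 0.61 for Bmp2 and Pdgfb, -0.040 to 1.10 for Bmp2 and Vegfa, -0.19 to 2.29 for Igf1 and Vegfa, -0.21 to 0.89 for Pdgfb and Pdgfc, -0.41 to 1.12 for Pdgfb and Vegfa, -0.12 to 0.27 for Pdgfb and Hbegf, -0.10 to 0.93 for Pdgfc and Hbegf and -0.14 to 1.24 for Vegfa and Hbegf. The causes were not tested. At 1000 UMIs, 6 of 21 pairs were found together in fewer than 5 cells.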

Other observations

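The ILC2 with Bmp2 were read for 10 genes of ILC2 and their cytokines, as a description without a test. The list was chosen after seeing the data and 6 of its genes are markers of the gate. In a draw of 1000 UMIs per cell made for this reading, 25 of 416 ILC2 held Bmp2, against 29 in the draw behind the shares of cells. Il5, the eosinophil growth factor, was found in 44% of these 25 and in 19.4% of the rest, a log2 odds ratio of 2.32 ± 1.28 (SD, n = 3 libraries). Areg was found in 56% and 38.4% (1.32 ± 1.31) and Csf2 in 40% and 27.4% (1.39 ± 1.60), with SDs about as wide as the values. Il13 was found in 16% and 15.3%, and Il1rl1 and Gata3 each in 72%, against 67.8% and 68.3%. For Klrg1 the shares were 8% and 14.8%, and for Il7r 44% and 52.9%. Arg1 was found in 28% and 24.0% and Calca in 16% and 8.70%.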
